A study of Mus musculus with 8 samples.

Results

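Genes of the oxidative phosphorylation complexes were examined in cultured mouse intestinal intraepithelial lymphocytes (IEL), the T cells that lie between the epithelial cells of the gut. They were the 75 bead-array identifiers (IDs), of 31492 on the array, whose names begin with NDUF, SDHA to SDHD, UQCR, COX4 to COX8 or ATP5. By these names 32 IDs belonged to complex I, 4 to complex II, 6 to complex III, 16 to complex IV and 15 to complex V. NDUFAF1, an assembly factor of complex I, and ATP5S (current symbol Dmac2l), which matches a prefix without being a subunit of the ATP synthase, were kept apart.

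All groups came from C57BL/6 IEL that were first activated for 48 h by surface-coated anti-CD3 (coated at 1 μg/ml), an antibody that triggers the T cell receptor complex, with a cytokine mix, and then spent 14 days with IL-2 as the sole cytokine. Cells were sorted into CD8αα and CD8αβ subsets, and each subset was taken after 24 h back on the same antibody and without this second exposure (0 h). The CD8αβ cells carry a TCRαβ receptor, while the labels name the receptor of the CD8αα cells in more than 1 way (TCRγδ in the protocol, TCRcd and TCRαα elsewhere), so the subsets are called here by their CD8 chains. Each of the 4 groups had 2 arrays, and nothing in the labels says whether these came from separate animals or cultures, so p-values measure the spread between arrays, which may be technical. No group was cultured for 24 h without anti-CD3, so the antibody and a further day of culture cannot be told apart.

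Complexes I to IV of the inner mitochondrial membrane pass electrons from NADH and succinate to oxygen, and complexes I, III and IV pump protons as they do so. Complex V, the ATP synthase, lets the protons back and makes ATP. Most subunits are encoded in the nucleus, as all genes chosen here are, and a core set in mitochondrial DNA. Resting and long-lived T cells lean on this route for ATP, and activated T cells add glycolysis to it.

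Between 28.3% and 32.3% of the IDs lay above background on an array, that is, at or over the lowest signal called detected at a detection p of 0.01 among IDs that seem to hold a single probe. Replicate arrays correlated at 0.953 to 0.963 (Pearson, normalised log2 signal, across the 9867 genes tested below). All 7 T cell markers looked at were above background on every array, whereas Cd8a was on none of the arrays and its partner Cd8b1 on all 8. The 8 include the CD8αα arrays, so detection of these CD8 genes does not tell the subsets apart. The epithelial markers were at background on every array for 7 of 10 genes (Lgals4 was above it on all 8, and the list summed to 854 to 973 at 24 h, against 1120 to 1157 at 0 h, in CD8αα cells, and to 769 to 814, against 887 to 1121 at 0 h, in CD8αβ cells), as were Cd4 and 5 of 7 myeloid genes. Of the B cell genes, Cd79a and Ms4a1 were at background throughout, but Igh-6 was above it on all 8 arrays and Cd79b on 7 of 8, and the summed raw signal of the B cell list was 732 to 855 at 24 h, against 2196 to 3119 at 0 h, in the CD8αα subset, and 416 to 447 at 24 h, against 655 to 927 at 0 h, in the CD8αβ subset. The 7 T cell genes also summed to less at 24 h (26594 to 32337, against 52920 to 54886 at 0 h, in CD8αα cells, and 19758 to 28816, against 39053 to 46899 at 0 h, in CD8αβ cells). The summed signal of the 6 CD8 and receptor chain genes was 2870 to 3527 at 24 h, against 9789 to 14747 at 0 h, in CD8αα cells, and 6722 to 9565 at 24 h, against 13135 to 14018 at 0 h, in CD8αβ cells. This list mixes chains of different receptors, so its sum does not mark either subset. The 3 mast cell genes summed to 257 to 347 at 24 h, against 360 to 864 at 0 h, in CD8αα cells, and to 184 to 199 at 24 h, against 200.1 to 291 at 0 h, in CD8αβ cells. The 3 stroma genes summed to 214 to 424 at 24 h, against 267 to 401 at 0 h, in CD8αα cells. In CD8αβ cells they summed to 205 to 229 at 24 h, against 230 to 325 at 0 h. All these sums are of raw signals with no background taken off. Mean background was 66.0 to 76.1 per ID across arrays, so the epithelial, mast cell and stroma sums hold much background. The part of these shifts in the results below was not tested, and fewer cells of a type and less RNA per cell cannot be told apart in such bulk samples.

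Of the 75 IDs, 61 were above background on all 8 arrays and 64 could be tested. The 3 tested IDs that missed it on some arrays were Sdhd (7 of 8), Dmac2l (6 of 8) and Cox7b (5 of 8, none of the CD8αβ arrays at 0 h among them). The 11 IDs left untested included Ndufs1, the largest iron-sulphur subunit of complex I, Sdha, the flavoprotein of complex II, and Uqcrfs1, the Rieske protein of complex III, each above background on 0 of 8 arrays. As background, each of these is an essential part of its complex, and these IDs gave no level to compare. Ndufb4 was above it on 0 of 8 arrays too, Ndufab1 and Ndufb2 on 1 of 8 and Atp5k on 4 of 8. Among isoforms restricted to certain tissues, Cox4i2 (lung), Cox8b (heart and muscle) and Cox8c (testis) were above background on 0 of 8 arrays and Cox6a2 (heart and muscle) on 1 of 8. Cox7a1, the heart and muscle form of its subunit, was above background on all 8 arrays, at a raw signal of 182 at the lowest.

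The subunit genes changed little after 24 h on anti-CD3. With the response averaged over both subsets, their median change was -0.06 on the log2 scale (0.05 when arrays were scaled to a common median), and the median size of the change was 0.16 (1.12-fold), against 0.39 over all 9867 genes tested and 0.34 over the 1831 genes with a mean log2 signal of 10 or more. For 62 of the 64 genes the 95% confidence interval of the mean change lay within 2-fold in both directions, the exceptions being Cox7a2l and Dmac2l. The share was 58.9% of all genes tested and 68.5% of the 1831 genes with a mean log2 signal of 10 or more. No gene rose and 4 fell at an adjusted p under 0.05 (limma with Benjamini-Hochberg adjustment over all genes), while 27.1% of all genes passed, 13.2% higher and 13.8% lower. At an unadjusted p under 0.05 the count was 8, against 42.0% of all genes. The intervals are plotted gene by gene, and the 4 genes that fell are given next.

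**Figure D1:**
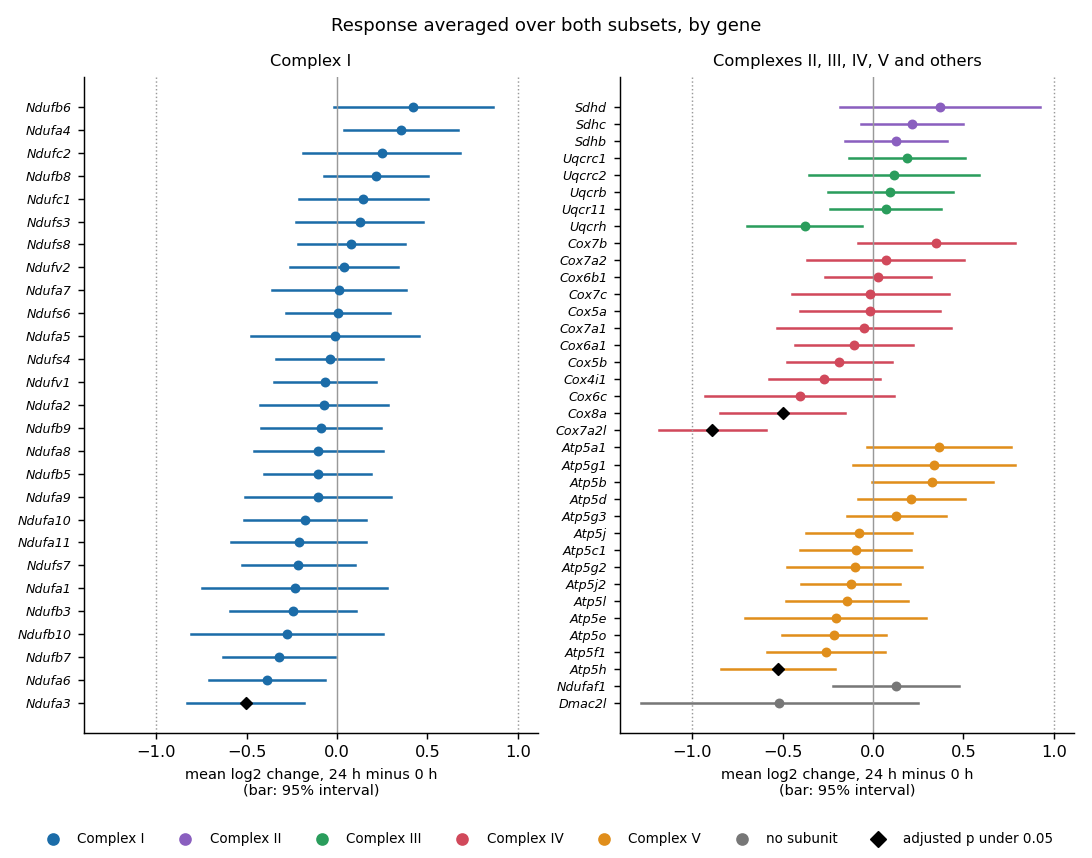
Mean log2 change, 24 h minus 0 h, of the tested genes named here (point) with its 95% confidence interval from limma (bar), by complex, with dotted lines at a 2-fold change. All but Cox7a2l and Dmac2l have intervals between the dotted lines, and the 4 black diamonds are the genes that fell.

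Cox7a2l fell furthest. Its product is described as a factor that joins complexes III and IV into supercomplexes. Whether it does so in these cells was not tested, and its ID stands with complex IV here by name only. Its normalised log2 signal was 10.56 and 10.73 in CD8αα IEL at 24 h, against 11.81 and 11.65 in CD8αα IEL at 0 h. In CD8αβ IEL it was 10.77 and 10.91 at 24 h, against 11.52 and 11.54 at 0 h. Every array at 24 h was below every array at 0 h. The mean response was -0.89 ± 0.12 (SE; 1.85-fold lower, adjusted p = 0.00678 by limma). It was also the single gene of the 64 that passed within a subset, at -1.09 ± 0.18 in the CD8αα response (2.12-fold lower, adjusted p = 0.0250 by limma), where 9.28% of all genes passed (7 of the 64 had an unadjusted p under 0.05, against 29.8% of all genes). The CD8αβ change of -0.69 had an adjusted p of 0.0801 by limma. Leaving out any 1 of the 4 CD8αα arrays ended the call within that subset, with adjusted p between 0.0587 and 0.131 by limma, whereas the mean response passed without each of the 8 arrays in turn. With the 6 arrays of chip 1 alone, which hold 1 CD8αα array at each time, the mean response was -0.97 with an adjusted p of 0.0532 by limma, and the CD8αα change was -1.25 on chip 1 and -0.92 on chip 2 (1 array against 1).

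The other genes that fell were 1 subunit each of complexes IV, V and I. Cox8a encodes a small membrane subunit of cytochrome c oxidase. It had a log2 signal of 12.87 and 13.08 in CD8αα IEL at 24 h, against 13.43 and 13.52 at 0 h, and of 12.78 and 12.78 in CD8αβ IEL at 24 h, against 13.48 and 13.08 at 0 h. Atp5h, subunit d of the peripheral stalk that holds the ATP synthase head in place, had 12.65 and 12.78 in CD8αα IEL at 24 h, against 13.18 and 13.43 at 0 h. In CD8αβ IEL it had 12.57 and 12.69 at 24 h, against 13.00 and 13.18 at 0 h. Ndufa3, an accessory subunit of complex I, had 12.53 and 12.72 in CD8αα IEL at 24 h, against 13.12 and 13.09 at 0 h. In CD8αβ IEL it had 12.54 and 12.40 at 24 h, against 13.16 and 12.84 at 0 h. In each subset the arrays of these genes at 24 h lay below those at 0 h, as they did for 11 of the 64 genes (20.5% of all genes tested), with 5 of the 64 the other way (21.6% of all genes). When arrays were scaled to a common median, 7 of the 64 lay below and 7 above. Over all 9867 genes tested, 1911 then lay below and 2185 above.

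**Figure D2:**
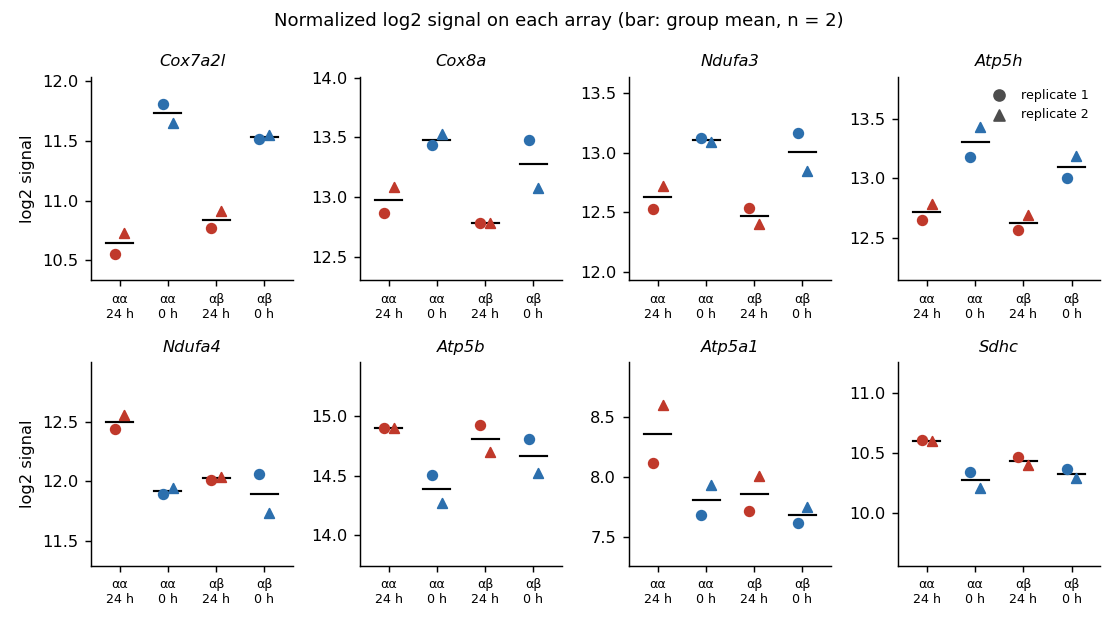
Normalised log2 signal (y axis) of 8 genes on each array, with 24 h in red and 0 h in blue, circles for replicate 1, triangles for replicate 2 and bars for group means (n = 2). The upper row holds the 4 genes that fell, in which both subsets are lower at 24 h, and the lower row 4 genes whose mean change was positive and did not pass.

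The mean response was -0.53 ± 0.13 for Atp5h (adjusted p = 0.0300), -0.51 ± 0.14 for Ndufa3 (adjusted p = 0.0365) and -0.50 ± 0.14 for Cox8a (adjusted p = 0.0445, all SE and by limma), a fall of 1.41-fold to 1.44-fold. The IDs of Cox7a2l, Ndufa3 and Atp5h average several probes each. The calls of Atp5h, Ndufa3 and Cox8a depended on the processing. With arrays scaled to a common median instead of quantile normalization, the changes were -0.39, -0.39 and -0.34 with adjusted p of 0.0717, 0.0909 and 0.138 by limma. With chip 1 alone the adjusted p was 0.142, 0.133 and 0.158 in the same order, and without the filter on dim IDs that of Cox8a was 0.0615 (limma). Leaving out 1 array ended the call of Ndufa3 and Cox8a for each of the 8 arrays (adjusted p of 0.0549 to 0.115 and 0.0601 to 0.131 by limma) and that of Atp5h for 7 of 8 (adjusted p up to 0.107 by limma). All 4 genes kept a negative mean change in every such fit.

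The 300 bases around the start site (250 before it, 50 after it) were available from RefSeq (assembly GRCm38.p6) for 61 of the 75 genes and were searched on both strands for motifs of factors known to drive respiratory genes. The motif of NRF1, nuclear respiratory factor 1, whose letters are in capitals in the stretches below, occurred in 13 of the 54 tested genes among them, against 12.8% of all 5969 tested genes that have such a window. The YY1 letters AAGATGGC occurred in 9 (16.7%, against 6.15%), the ETS letters CCGGAAGT, which GABPA binds, in 5 (9.26%, against 11.0%) and the CREB/ATF letters TGACGTCA in 2 (3.70%, against 3.84%). Each motif was counted on its own, and a gene could hold more than 1. The mean response had a median of -0.10 over the 13 tested genes with the NRF1 letters and of -0.04 over the 41 without. Over the 5 tested genes with the ETS letters it was -0.38, within a range of -0.53 to 0.13, and over the 49 without -0.05. A match describes letters and shows no binding.

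The last 160 bases before the start site are shown for the 4 genes that fell, which were chosen by that call. Matches to the NRF1 letters and, in the antisense direction, the ETS letters are in capitals. Whether the 4 genes share regulation was not tested. Only Atp5h holds a match in this stretch. The ETS letters of Cox8a run across the start site and the YY1 letters of Ndufa3 lie after it, outside what is printed, and Cox7a2l had none of the motifs in its window.
Cox7a2l, chr17:83514334-83514493, minus strand: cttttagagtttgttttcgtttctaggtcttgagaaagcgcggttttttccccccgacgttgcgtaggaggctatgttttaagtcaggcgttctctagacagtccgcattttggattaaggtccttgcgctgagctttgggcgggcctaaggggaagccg
Cox8a, chr19:7217617-7217776, minus strand: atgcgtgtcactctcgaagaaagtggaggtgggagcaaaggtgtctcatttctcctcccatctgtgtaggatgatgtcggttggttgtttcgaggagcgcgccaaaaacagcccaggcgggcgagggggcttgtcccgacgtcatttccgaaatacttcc
Ndufa3, chr7:3617213-3617372, plus strand: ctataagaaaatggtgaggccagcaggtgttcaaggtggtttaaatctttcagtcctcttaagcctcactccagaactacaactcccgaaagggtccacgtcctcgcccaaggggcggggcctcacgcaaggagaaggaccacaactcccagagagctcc
Atp5h, chr11:115419920-115420079, minus strand: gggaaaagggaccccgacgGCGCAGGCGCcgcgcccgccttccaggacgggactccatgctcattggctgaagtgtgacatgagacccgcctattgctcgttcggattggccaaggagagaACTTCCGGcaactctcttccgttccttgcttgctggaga

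The same stretch of 4 genes with the NRF1 letters and no called change follows, with those letters in capitals, to show how the match sits before different subunits: the c ring of the ATP synthase (Atp5g2), cytochrome c oxidase (Cox6a1) and 2 accessory subunits of complex I (Ndufa8 and Ndufs6). Their mean responses were -0.10, -0.11, -0.10 and 0.01, against -0.53 in Atp5h, which also has the match.
Atp5g2, chr15:102671048-102671207, minus strand: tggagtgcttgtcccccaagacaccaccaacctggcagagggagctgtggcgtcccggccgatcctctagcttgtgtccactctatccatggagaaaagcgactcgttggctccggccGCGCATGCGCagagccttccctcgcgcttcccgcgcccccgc
Cox6a1, chr5:115348959-115349118, minus strand: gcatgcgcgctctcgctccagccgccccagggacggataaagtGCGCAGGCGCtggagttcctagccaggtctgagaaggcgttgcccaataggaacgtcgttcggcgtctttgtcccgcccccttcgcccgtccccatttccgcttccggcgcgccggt
Ndufa8, chr2:36049339-36049498, minus strand: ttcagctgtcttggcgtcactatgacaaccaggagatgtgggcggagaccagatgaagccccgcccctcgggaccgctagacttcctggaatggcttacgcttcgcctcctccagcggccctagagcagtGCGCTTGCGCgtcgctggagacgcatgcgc
Ndufs6, chr13:73328483-73328642, minus strand: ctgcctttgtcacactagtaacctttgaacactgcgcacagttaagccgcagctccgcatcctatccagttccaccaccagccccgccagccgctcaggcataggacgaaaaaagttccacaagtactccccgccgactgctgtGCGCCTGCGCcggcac

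Complex I, which takes electrons from NADH, had 28 tested genes with a median mean response of -0.07 (0.05 under median scaling), 11 positive and 17 negative. Its core subunits, which carry the flavin and the iron-sulphur clusters or lie beside them, stayed within a narrow range. The mean response was 0.12 for Ndufs3, -0.21 for Ndufs7, 0.08 for Ndufs8, -0.06 for Ndufv1 and 0.04 for Ndufv2, with SE between 0.12 and 0.15. Of the 22 accessory subunits 7 were positive and 15 negative, with a median of -0.10. Ndufa4, which is also described as a subunit of complex IV, had a log2 signal of 12.44 and 12.56 in CD8αα IEL at 24 h, against 11.89 and 11.94 at 0 h. In CD8αβ IEL it had 12.01 and 12.04 at 24 h, against 12.06 and 11.73 at 0 h, so that the groups overlapped in this subset and not in the other. Its mean response of 0.35 ± 0.13 (SE) had an adjusted p of 0.0894 by limma, and passed under median scaling (0.48, adjusted p = 0.0428 by limma). Ndufa6, an accessory subunit that binds the acyl carrier protein Ndufab1, had a mean response of -0.39 ± 0.14 (SE; adjusted p = 0.0747 by limma).

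Complex II, succinate dehydrogenase, had 3 tested genes, all positive under both scalings. Sdhb, its iron-sulphur subunit, had a mean response of 0.13 ± 0.12, Sdhc, a membrane anchor that binds ubiquinone, of 0.22 ± 0.12 and Sdhd, the other anchor, of 0.37 ± 0.23 (SE), and none passed. Sdhc had a log2 signal of 10.60 and 10.60 in CD8αα IEL at 24 h, against 10.34 and 10.21 at 0 h, and of 10.47 and 10.40 in CD8αβ IEL at 24 h, against 10.37 and 10.29 at 0 h. Its arrays did not overlap between the times in either subset, nor did those of Sdhb, while Sdhd was close to background.

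Complex III, which hands electrons from ubiquinol to cytochrome c, had 5 tested genes with a median of 0.10. The core proteins Uqcrc1 and Uqcrc2 had mean responses of 0.19 ± 0.13 and 0.12 ± 0.20 (SE). Uqcrh, the hinge protein at the cytochrome c1 side, was the single negative gene at -0.38 ± 0.13 (SE; adjusted p = 0.0767 by limma). It had a log2 signal of 13.80 and 13.77 in CD8αα IEL at 24 h, against 14.16 and 14.08 at 0 h, and of 13.42 and 13.67 in CD8αβ IEL at 24 h, against 14.09 and 13.85 at 0 h. The arrays did not overlap between the times in either subset.

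Complex IV, cytochrome c oxidase, had 12 tested genes with Cox7a2l counted, 3 positive and 9 negative, and a median of -0.08. The subunits nearest the catalytic core gave -0.27 ± 0.13 for Cox4i1, the largest subunit encoded in the nucleus, -0.02 ± 0.16 for Cox5a and -0.19 ± 0.12 for Cox5b, which binds zinc (SE). Cox6c was at -0.40 ± 0.22 (SE). The positive value of Cox7b, 0.35 ± 0.18 (SE), came from signals near background. Cox7a1 had changes of 0.28 in the CD8αα and -0.38 in the CD8αβ response, a difference of 0.65 that did not pass (unadjusted p not under 0.05 by limma).

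Complex V had 14 tested genes with a median of -0.10 (0.03 under median scaling). In the head and central stalk, where ATP is made, 3 of 5 genes were positive, at 0.37 ± 0.17 for Atp5a1 (α), 0.33 ± 0.14 for Atp5b (β) and 0.21 ± 0.12 for Atp5d (δ), and 2 were negative, at -0.10 ± 0.13 for Atp5c1 (γ) and -0.21 ± 0.21 for Atp5e (ε; SE). Atp5b had a log2 signal of 14.90 and 14.90 in CD8αα IEL at 24 h, against 14.51 and 14.27 at 0 h, and of 14.92 and 14.70 in CD8αβ IEL at 24 h, against 14.81 and 14.52 at 0 h. Atp5a1 had 8.12 and 8.61 in CD8αα IEL at 24 h, against 7.68 and 7.93 at 0 h, and 7.71 and 8.01 in CD8αβ IEL at 24 h, against 7.61 and 7.75 at 0 h. The times separated in CD8αα IEL and overlapped in CD8αβ IEL for both genes, and neither mean response passed (adjusted p = 0.124 for Atp5b and 0.145 for Atp5a1 by limma). The 3 genes that encode the same c-ring protein gave 0.34 ± 0.19 for Atp5g1, -0.10 ± 0.16 for Atp5g2 and 0.13 ± 0.12 for Atp5g3 (SE). In the peripheral stalk all 4 genes were negative, at -0.53 for Atp5h, -0.26 for Atp5f1 (subunit b), -0.22 for Atp5o (OSCP) and -0.08 for Atp5j (F6; 0.07 under median scaling), and of these Atp5h passed. Whether the head and the stalk differ was not tested. Apart from the complexes, Ndufaf1 was at 0.13 ± 0.15 and Dmac2l at -0.52 ± 0.32 (SE), and neither passed. Dmac2l was above background on both arrays at 0 h and on 1 of 2 at 24 h in each subset. It thus entered the test only through the 0 h groups, which favours a negative change.

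**Figure D3:**
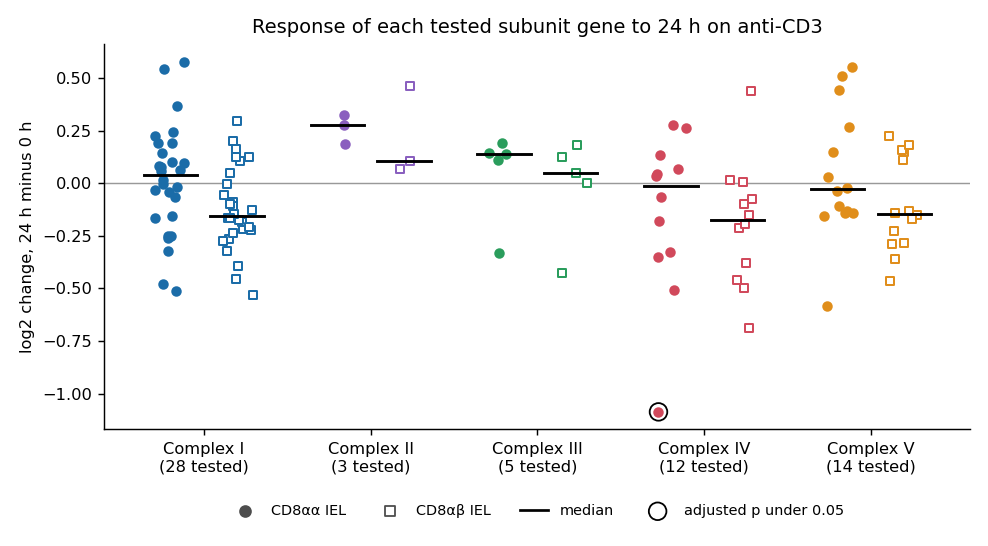
Log2 change, 24 h minus 0 h (y axis), of each tested subunit gene by complex, in CD8αα IEL (filled circles) and CD8αβ IEL (open squares), with the median of each set as a black bar. The ringed point at -1.09 is Cox7a2l, the single gene past the threshold within a subset.

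Within CD8αα IEL the complexes had median changes of 0.04 (I), 0.28 (II), 0.14 (III), -0.01 (IV) and -0.03 (V), and within CD8αβ IEL of -0.16, 0.11, 0.05, -0.17 and -0.14 in the same order. Over all 64 genes the median was 0.04 in the CD8αα response, with 35 positive and 29 negative, and -0.14 in the CD8αβ response, with 23 positive and 41 negative. In the CD8αβ response no gene of the 64 passed by limma, with 4 at an unadjusted p under 0.05 (25.0% of all genes), while 3.07% of all genes passed. These signs depended on the scaling: under median scaling the medians were 0.13 in the CD8αα, -0.0028 in the CD8αβ and 0.05 in the mean response, the last with its sign turned. The medians of complexes II and III were positive under both scalings in each subset.

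**Figure D4:**
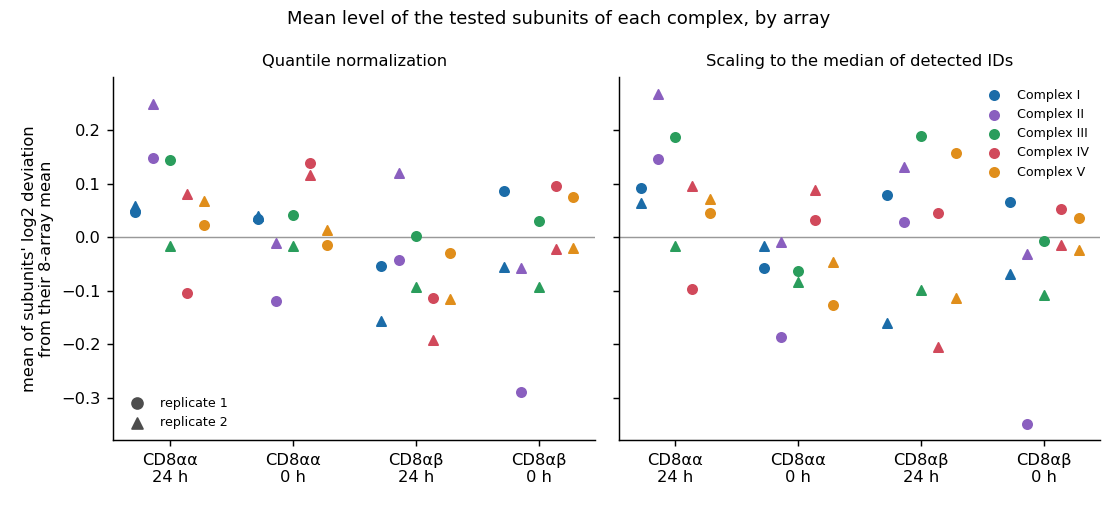
Mean over the tested subunits of each complex of the log2 deviation from the gene's own 8-array mean (y axis), for each array, under quantile normalization (left) and median scaling (right), with circles for replicate 1 and triangles for replicate 2. Complex II, with 3 genes of which Sdhd is close to background, has its highest values in CD8αα IEL at 24 h in both panels. Complex IV counts Cox7a2l.

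The mean over the tested subunits of a complex was set beside the spread of its replicates, first under quantile normalization. Complex I deviated from its 8-array mean by 0.05 ± 0.01 at 24 h, against 0.04 ± 0.0035 at 0 h, in CD8αα IEL, and by -0.11 ± 0.07 at 24 h, against 0.02 ± 0.10 at 0 h, in CD8αβ IEL (log2, SD, n = 2). Complex II deviated by 0.20 ± 0.07 at 24 h, against -0.07 ± 0.08 at 0 h, in CD8αα IEL, and by 0.04 ± 0.11 at 24 h, against -0.17 ± 0.16 at 0 h, in CD8αβ IEL. Of its 3 tested genes Sdhd, close to background, had the largest change in CD8αβ IEL, 0.46, beside a median of 0.11. Complex IV deviated by -0.01 ± 0.13 at 24 h, against 0.13 ± 0.02 at 0 h, in CD8αα IEL, and by -0.15 ± 0.06 at 24 h, against 0.04 ± 0.08 at 0 h, in CD8αβ IEL. This mean counts Cox7a2l, which stands with complex IV by name only. Its changes were the lowest of the 12 genes, at -1.09 in CD8αα and -0.69 in CD8αβ IEL. Complexes III and V stayed between -0.07 and 0.06 in all 4 groups. Median scaling gave other values. Complex I then deviated by 0.08 ± 0.02 at 24 h, against -0.04 ± 0.03 at 0 h, in CD8αα IEL. In CD8αβ IEL it deviated by -0.04 ± 0.17 at 24 h, against -0.00085 ± 0.10 at 0 h (SD). Complexes III and V then lay between -0.09 and 0.09, with complex V in CD8αα IEL at 0.06 ± 0.02 at 24 h, against -0.09 ± 0.06 at 0 h.

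The subsets had near levels of these genes. At 0 h the CD8αα minus CD8αβ difference had a median of 0.03, and no gene of the 64 passed by limma (0.486% of all genes did), with 1 at an unadjusted p under 0.05 (7.03% of all genes). At 24 h the median was 0.12, with 53 genes positive and 11 negative, and again none passed by limma (0.324% of all genes did), with 3 at an unadjusted p under 0.05 (3.98% of all genes). Those 3, Ndufa4, Ndufb5 and Ndufb9, had differences of 0.47 ± 0.19, 0.48 ± 0.18 and 0.49 ± 0.20 (SE). All CD8αβ arrays were on chip 1 and both arrays of chip 2 were CD8αα, so chip and subset are partly confounded. With the chip as a block the median at 24 h was again 0.12. None of the 64 then had an unadjusted p under 0.05 by limma at either time. At 24 h both CD8αα arrays lay above both CD8αβ arrays for 26 of the 64 genes (40.6%, against 11.8% of all genes), 14 of them in complex I, and below for 2 (3.13%, against 11.0%), Cox7a2l and Ndufb7. Under median scaling these counts were 14 above (9.38% of all genes) and 3 below (13.7% of all genes). Averaged over both times the difference had a median of 0.08, no gene passed by limma (0.932% of all genes did) and 4 had an unadjusted p under 0.05 (9.04% of all genes). All 64 confidence intervals lay within 2-fold, compared with 80.6% of all genes and 90.3% of those with a mean log2 signal of 10 or more.

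The difference between the responses, CD8αα minus CD8αβ, was positive for 50 genes and negative for 14, with a median of 0.11. None of the 64 passed by limma and 0 had an unadjusted p under 0.05, while over all genes 0 passed (0.0%) and 165 (1.67%) had an unadjusted p under 0.05. The standard error of this difference had a median of 0.28 over the 64 genes, so a small difference between the responses was not detectable with 2 arrays a group. Of the 64 genes 47 had a 95% interval within 2-fold (37.5% of all genes and 55.2% of those with a mean log2 signal of 10 or more).

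Neighbouring groups of mitochondrial genes were read against the 13.2% of all genes that rose, the 13.8% that fell and the 42.0% with an unadjusted p under 0.05 in the mean response. Among electron carriers and related genes outside the prefixes, 2 of 10 tested genes rose in the mean response and none fell: Cycs, cytochrome c, by 0.84 ± 0.19 (1.79-fold, adjusted p = 0.0225 by limma), and Cyc1, cytochrome c1 of complex III, by 0.63 ± 0.18 (1.54-fold, adjusted p = 0.0410 by limma). Of 23 tested assembly factors 4 rose and 1 fell. Ttc19, which serves complex III, rose by 1.13 ± 0.17, and the factors for copper delivery to cytochrome c oxidase Cox19, Cox11 and Cox17 by 0.68, 0.65 and 0.48, while Surf1, another factor of that complex, fell by 0.58 on the log2 scale. In the tricarboxylic acid cycle, which feeds the chain, 2 of 14 rose, Mdh2 by 0.61 and Dlst by 0.50, and none fell. At an unadjusted p under 0.05 by limma there were 3 of 10, 11 of 23 and 5 of 14 in these 3 groups, in the order given. Their median changes were 0.36 (9 positive and 1 negative), 0.33 (18 and 5) and 0.25 (11 and 3). The counts of genes that rose are small and near the share of all genes that rose.

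Among 16 genes of mitochondrial biogenesis and mitochondrial DNA expression, 3 rose, Myc by 1.30 ± 0.32, Tefm, an elongation factor of mitochondrial transcription, by 0.64 ± 0.15, and Tfb2m, an initiation factor, by 0.64 ± 0.17 (SE), and none fell, a share near that of all genes. The 16 genes had a median of 0.22 (10 positive and 6 negative), with 4 at an unadjusted p under 0.05 by limma. Of 17 carriers and protein import genes 8 rose and none fell, with a median of 0.51, beside the 13.2% of all genes that rose. An unadjusted p under 0.05 by limma was found for 9 of the 17. Tomm40, the pore of the outer membrane, rose by 1.31 ± 0.27 (2.48-fold), Timm8a1 by 0.93 ± 0.15 and Timm17a, part of the inner membrane translocase, by 0.80 ± 0.14 (SE). Of the 13 subunits encoded in mitochondrial DNA 8 were on the array and 7 tested, 1 positive and 6 negative with a median of -0.14, and none passed by limma (0 at an unadjusted p under 0.05, against 42.0% of all genes).

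**Figure D5:**
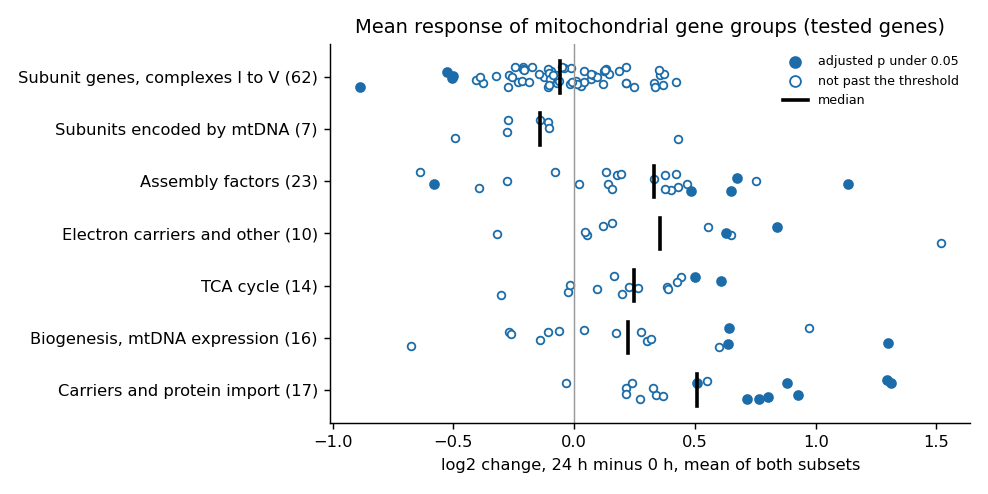
Log2 change, 24 h minus 0 h averaged over both subsets (x axis), of the tested genes of complexes I to V and of 6 neighbouring mitochondrial gene groups (number tested in brackets), with filled points past the adjusted threshold and a black bar at each median. The subunit genes gather around 0, and the carriers and import genes have a median of 0.51.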

How the data were processed

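Intensities came from the submitters' table of bead-array signals, not normalized, with detection p-values, bead numbers and bead errors per ID, and from their table of log2 values (lumi, per the submitters' processing notes). RefSeq named 38 of the 75 IDs by Entrez ID and 28 by accession, the array annotation 8 and the ID itself 1. Detection p-values as deposited by the authors were used only for single-probe IDs (22838, read from whole bead numbers), because those of several-probe IDs do not rank the mean signal. Background was corrected with normexp (offset 16), followed by quantile normalization and log2 in limma 3.58.1 (R 4.3.3). An ID was tested if above background on both arrays of a group, which kept 9961 IDs and 9867 genes (brightest ID per gene). One model with a mean per group over 8 arrays (4 residual degrees of freedom) gave 7 comparisons, with Benjamini-Hochberg adjustment over all genes at 0.05. Changes are 24 h minus 0 h and CD8αα minus CD8αβ. Bead errors of these genes had a median of 3.25% of the signal, and precision is limited by having 2 arrays per group. The fit was tested on simulated data. Named genes are those that passed without overlapping arrays, core subunits, tissue-restricted isoforms, IDs that are no subunit, and up to 3 called genes in each direction per neighbouring list. The genes and lists were chosen with earlier results of these data known. Promoter motifs were matched as letters. No arrays were left out. A few genes that count in the totals are not reported here by name.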

Additional observations from a re-analysis of the deposited data

How the results depend on the processing

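The other settings tried were background estimated from all IDs or none, median scaling, filters by the deposited detection p or none, the submitters' own log2 values, the chip as a block, chip 1 alone, every ID tested on its own, each array left out, and the replicate number as a block. Members that passed in the mean response numbered 8 (2 higher and 6 lower) with background from all IDs, 8 (1 and 7) with the submitters' log2 values, 2 (1 and 1) with median scaling, 0 with chip 1 alone and 1 to 2 with an array left out. Their median was -0.0146 with background from all IDs, 0.0510 with median scaling, -0.0156 with no filter, -0.0377 with the submitters' values, -0.0759 with chip 1 alone, and -0.114 to 0.01002 with an array left out. In the CD8αα response 2 (1 and 1) passed with background from all IDs, 3 (1 and 2) with the submitters' values, 0 with chip 1 alone and 0 to 1 with an array left out, and the median was 0.0120 with background from all IDs, 0.130 with median scaling, -0.0271 with chip 1 alone, 0.0131 with chip 2 alone (1 array against 1, chosen after seeing the data) and -0.00635 to 0.0425 with an array left out. In the CD8αβ response 1 passed with background from all IDs and 1 with the submitters' values (both lower), and the median was -0.00280 with median scaling and -0.166 to -0.0134 with an array left out. The median difference of the responses was 0.0654 with background from all IDs and 0.0241 to 0.185 with an array left out, and that of the subsets at 24 h 0.0813 to 0.187 with an array left out. No subunit passed between the subsets, or in the difference of the responses, with an array left out. The cause of these shifts was not tested. Same-numbered arrays deviated together (correlations of 0.533 to 0.698 between their deviations). The labels name no shared batch and each comparison has 2 pairs, so what these arrays share beyond the number is not known. With the replicate block, 14 members passed in the mean response (5 higher and 9 lower), 6 in the CD8αα response (3 and 3) and 2 in the CD8αβ response (both lower). The share of all genes that passed under each of these other settings is not given here, so these counts cannot be read against it. No result changed its direction past the threshold under any of these settings. With 2 arrays a group, changes of under about 2-fold within a subset are near the limit of detection, and signals of Sdhd, Cox7b and Dmac2l lie close to background.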

Other observations

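Current annotation gives chain gene symbols to 10 further IDs whose names lack the prefixes, a list assembled after the data were seen. Of these 6 could be tested, and 1 passed in the mean response: Ndufv3, a small subunit of the NADH-oxidising arm of complex I, at -0.85 ± 0.15 (SE; 1.81-fold lower, adjusted p = 0.0109 by limma), next to Cox7a2l at -0.89. The median over the 6 was -0.07, with 3 positive and 3 negative.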
